A study of Mus musculus with 4 samples.

Results

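The genes described here encode the enzymes and regulators of cholesterol and fatty acid synthesis. They comprise 38 genes, out of 31829 gene names with a non-control probe on the mouse array, and were chosen by name: 5 genes of the control of sterol regulatory element-binding proteins (SREBPs), 18 enzymes of the sterol pathway, the sterol carrier Stard4, 5 enzymes that make acetyl-CoA or fatty acids, 7 elongases and desaturases, and 2 enzymes of glycerolipid synthesis. A gene with more than 1 probe was read at its brightest probe.

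Expression was measured in total RNA of breast cancer cells derived from MMTV-Neu tumors of mice, where a mammary tumor virus promoter expresses the oncogene Neu (Her2) in mammary epithelium. The 2 samples labelled Pak1-/- lacked the p21-activated kinase Pak1 per their labels, and the 2 samples labelled Pak1+/+ were wild type for it. Every sample was of the Her2 positive type, and each had been kept for 3 h without serum and then given EGF for 15 min, so no unstimulated sample entered the comparison. The design text states that the cells of a group came from different tumors, so a group of 2 rests on 2 tumors.

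Cholesterol and long-chain fatty acids are both built from cytosolic acetyl-CoA. When sterols in the membrane of the endoplasmic reticulum run low, the escort protein Scap carries the SREBPs to the Golgi, where they are cut and released to the nucleus. Srebf2 encodes the SREBP that acts mostly on sterol genes, and Srebf1 encodes forms that act mostly on fatty acid genes. The SREBPs bind sterol response elements and are known to work together with the CCAAT-binding factor NF-Y. Proliferating tumor cells are known to draw on this synthesis for membranes, and the mammary epithelium uses it for milk fat.

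The promoter sequences of the sterol enzymes that changed most are shown here because the CCAAT box recurs in them. RefSeq promoters on GRCm38.p6, each running from 250 bases before to 50 bases after a transcription start, were held for 31 of the 38 genes. None was held for Fdps, Fdft1, Sqle, Stard4, Scd1, Scd2 and Fads1, so their motifs are not known here. The 150 bases before the start are printed 5′ to 3′ on the strand of the gene, with CCAAT (or ATTGG, the same box on the other strand) and the sterol response element consensus TCACNCCAC in capitals. No 2 of the matches overlapped. Of the 9 genes, 8 were lower in the arrays labelled Pak1-/-, and Hmgcs1, which was not called, is included for its sterol element.
Lss: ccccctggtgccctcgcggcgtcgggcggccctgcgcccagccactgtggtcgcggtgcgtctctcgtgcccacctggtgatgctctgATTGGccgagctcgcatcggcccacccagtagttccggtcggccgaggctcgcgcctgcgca
Tm7sf2: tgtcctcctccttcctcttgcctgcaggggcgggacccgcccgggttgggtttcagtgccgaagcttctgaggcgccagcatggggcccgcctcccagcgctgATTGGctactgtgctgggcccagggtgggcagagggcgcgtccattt
Nsdhl: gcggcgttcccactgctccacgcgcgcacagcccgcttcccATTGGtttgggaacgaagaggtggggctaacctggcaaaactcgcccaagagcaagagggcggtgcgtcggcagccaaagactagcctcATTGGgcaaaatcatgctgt
Cyp51: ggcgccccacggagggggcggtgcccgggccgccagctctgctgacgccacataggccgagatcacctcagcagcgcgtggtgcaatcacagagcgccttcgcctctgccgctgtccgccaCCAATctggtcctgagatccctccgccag
Sc4mol: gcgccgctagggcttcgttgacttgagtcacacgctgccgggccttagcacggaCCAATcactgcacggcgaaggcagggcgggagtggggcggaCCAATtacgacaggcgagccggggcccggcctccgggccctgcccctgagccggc
Idi1: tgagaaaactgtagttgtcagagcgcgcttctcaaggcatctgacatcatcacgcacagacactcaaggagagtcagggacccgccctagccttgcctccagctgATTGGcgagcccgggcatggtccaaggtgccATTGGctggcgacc
Mvk: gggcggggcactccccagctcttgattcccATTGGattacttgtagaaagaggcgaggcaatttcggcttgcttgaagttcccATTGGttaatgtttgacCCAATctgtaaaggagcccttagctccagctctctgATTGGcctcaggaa
Mvd: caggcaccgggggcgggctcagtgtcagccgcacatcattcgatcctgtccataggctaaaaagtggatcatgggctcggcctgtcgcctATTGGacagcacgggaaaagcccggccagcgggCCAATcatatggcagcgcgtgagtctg
Hmgcs1: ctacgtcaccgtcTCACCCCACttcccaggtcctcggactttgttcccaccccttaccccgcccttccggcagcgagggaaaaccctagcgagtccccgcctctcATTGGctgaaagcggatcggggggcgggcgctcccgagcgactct

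The stretches lie at chr10:76531455-76531604 (+ strand) for Lss, chr19:6067851-6068000 (-) for Tm7sf2, chrX:72918371-72918520 (+) for Nsdhl, chr5:4104698-4104847 (-) for Cyp51 and chr8:64733579-64733728 (-) for Sc4mol, which RefSeq now names Msmo1. Those of the earlier enzymes lie at chr13:8885456-8885605 (+) for Idi1, chr5:114444119-114444268 (+) for Mvk, chr8:122443423-122443572 (-) for Mvd and chr13:119690201-119690350 (+) for Hmgcs1. Counted from the start site, the first base of the box was at -62 in Lss, -47 in Tm7sf2 and -29 in Cyp51. Mvk carried 4 boxes in the stretch shown, more than any other of the 9 genes, but such counts depend on the length printed. Outside it, Hmgcs1, which was not called, had further boxes at -237, -176 and 11. So did Mvk (-173), Sc4mol (-160) and Nsdhl (9 and 35). CCAAT was found in at least 1 promoter of 25 of the 31 synthesis genes (80.6%), against 41.1% of 27025 genes in the table, and in 14 of 15 sterol pathway enzymes (93.3%). Among the 19 genes with a promoter that were lower in the arrays labelled Pak1-/-, 16 held it (84.2%), and among the other 12, which include the higher Elovl1, 9 held it (75%). TCACNCCAC was present only in Hmgcs1, 1 of the 41 promoters of these genes (2.44%) against 1.24% of all 32851, and CACGTG, the E-box, was present in 7 of 41 (17.1%) against 7.15%. The 7 include 2 overlapping promoters of Scap that share the same site. By gene, CACGTG was found in 6 of 31 (19.4%) against 8.09% of all genes. It was found in 2 of the 19 lower genes (10.5%) and in 4 of the other 12 (33.3%). Both strands were searched for all 3 motifs, and only exact matches were counted, so variant elements would be missed. These are matches of letters and not measured binding.

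The 4 arrays had median spot intensities of 322 to 331, and 62.2% to 70.4% of 39429 probes were well above background. All were hybridised on the same slide and read in the same scan, with the arrays labelled Pak1-/- at other positions than those labelled Pak1+/+, so position and genotype cannot be told apart. The single Pak1 probe did not bear out the labels. It read 12.21 and 12.25 on the arrays labelled Pak1-/-, against 12.04 and 12.04 for Pak1+/+ (normalized log2 intensity), a difference of 0.19 (SE 0.07, limma adjusted p = 0.0700). Whether that probe lies in the deleted part of the gene is not given in the sources used here, and every direction in the text follows the labels. In such RNA, fewer cells of a type and less RNA per cell cannot be told apart.

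All 38 genes were well above background on all 4 arrays and none was saturated, so none was lost to a filter. Across the genes tested, 51.0% of brightest probes were called, 28.2% as lower in Pak1-/- and 22.8% as higher, at a Benjamini-Hochberg adjusted p under 0.05 in limma (over all probes, 51.9% were called, 28.6% lower and 23.3% higher). The balance between directions turned under cyclic loess, another scaling of the arrays, with 7324 probes higher and 6647 lower in place of 6349 and 7783. Of the synthesis genes 24 (63.2%) were lower, 1 was higher and 13 were not called. The median log2 difference, Pak1-/- minus Pak1+/+, was -0.38 over the 38 genes and -0.05 over all 21961 genes. Fads1, Tm7sf2, Fads2, Lss, Nsdhl and Stard4 were lower by at least 2-fold, 6 of 38 genes, where 5.62% of all genes were. No overlap between the arrays of the groups was seen in 33 of the 38 genes, 29 of them lower and 4 higher, where 77.6% of all genes showed no overlap and 43.4% were lower without overlap. The median gap between arrays of the same group was 0.07 on the log2 scale in either genotype, and that between group means was 0.39. Over all probes tested these gaps were 0.11 (Pak1-/-), 0.08 (Pak1+/+) and 0.33.

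**Figure D1:**
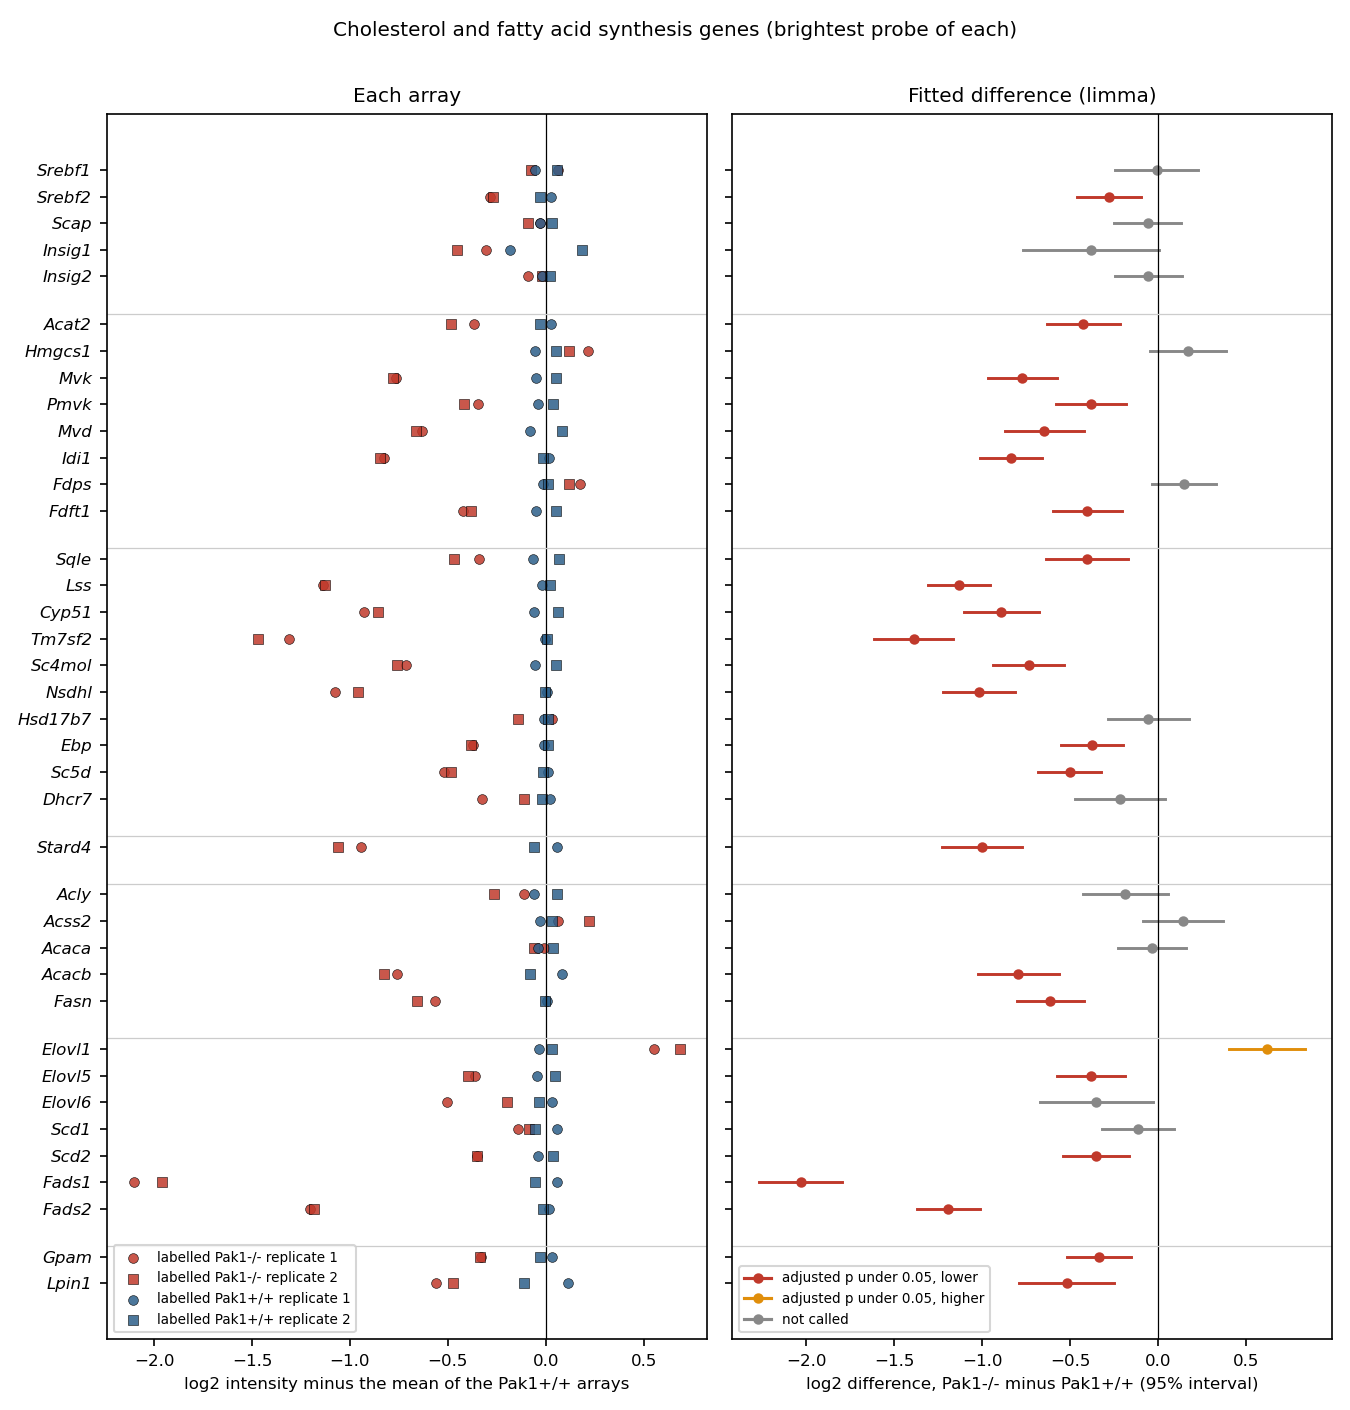
Normalized log2 intensity of the brightest probe of each of the 38 genes. Left, the 4 arrays (red, labelled Pak1-/-; blue, labelled Pak1+/+; circles and squares, replicates 1 and 2) minus the mean of the arrays labelled Pak1+/+. Right, the fitted difference with its 95% interval, colored by the call. Grey lines part the roles, from the top SREBP control, mevalonate to squalene, squalene to cholesterol, sterol transport, fatty acid synthesis, elongation and desaturation, and glycerolipid synthesis. Most red points lie left of the blue ones, with Fads1 farthest at -2.03 and Elovl1 alone called to the right at 0.62.

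Of the 5 genes that control the SREBPs, 1 fell, a share of 20% where 28.2% of all genes were lower. Srebf2 went from 12.50 and 12.44 on the arrays labelled Pak1+/+ to 12.18 and 12.20 on those labelled Pak1-/- (log2 difference -0.28, SE 0.07, adjusted p = 0.0260). Both Pak1-/- values lay below both Pak1+/+ values. Its other probe gave -0.40 (SE 0.12, adjusted p = 0.0447). The call was lost whichever array was left out, with adjusted p = 0.0652 to 0.140, while the difference stayed negative, and also under cyclic loess (0.0656) and with a replicate block (0.0563).

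Srebf1 read 11.69 and 11.55 on the arrays labelled Pak1-/- against 11.57 and 11.69, so the groups overlapped entirely, and its difference of -0.01 had a 95% interval of -0.24 to 0.23. Scap, the escort protein, differed by -0.06 (interval -0.25 to 0.13). Insig2, which with Insig1 holds Scap in the endoplasmic reticulum when sterols are plentiful, differed by -0.06 (interval -0.24 to 0.13). The signs of these small differences turned under cyclic loess, to 0.07 for Srebf1, 0.05 for Scap and 0.02 for Insig2. Insig1, itself a well-known SREBP target, read 11.144 and 10.997 against 11.27 and 11.63. Its groups did not overlap, but the Pak1+/+ arrays stood far apart, and the difference of -0.38 (SE 0.15) did not pass (adjusted p = 0.0876). Without Pak1+/+ replicate 1 it did, at -0.56 (adjusted p = 0.0279).

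Of the 8 enzymes from acetyl-CoA to squalene, 6 fell (75%, beside 28.2% of all genes). Idi1, which isomerises isopentenyl diphosphate (probe at mm9 chr13:8891524-8891583), read 14.05 and 14.03 on the arrays labelled Pak1-/-, against 14.89 and 14.86 for Pak1+/+. The groups stood apart by many times the gap between replicates, and the difference was -0.84 (SE 0.07, adjusted p = 0.00106), or 1.79-fold lower. Mevalonate kinase, Mvk (chr5:114910540-114910599), read 13.23 and 13.21 against 13.94 and 14.04. Both Pak1-/- arrays were lower, by 0.77 in the mean (log2 difference -0.77, SE 0.07, adjusted p = 0.00167), and its other probe gave -0.87. Mvd, the decarboxylase that makes isopentenyl diphosphate (chr8:124957750-124957809), read 11.99 and 11.96 against 12.54 and 12.70, a log2 difference of -0.65 (SE 0.09, adjusted p = 0.00398). Idi1, Mvk and Mvd hold 2, 4 and 2 of the CCAAT boxes printed above.

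The other 3 that fell did so by less. Acat2, the cytosolic thiolase that starts the pathway, read 10.87 and 10.76 against 11.27 and 11.21 (log2 difference -0.42, adjusted p = 0.0110). Fdft1, squalene synthase, read 13.19 and 13.23 against 13.56 and 13.66 (-0.40, adjusted p = 0.0112). Pmvk, phosphomevalonate kinase, read 14.72 and 14.65 against 15.03 and 15.11 (-0.38, adjusted p = 0.0131). In each the groups were apart, with the arrays labelled Pak1-/- lower. The call was lost for Acat2 without Pak1+/+ replicate 1 (adjusted p = 0.0606), for Fdft1 without Pak1-/- replicate 1 (0.0501) or Pak1+/+ replicate 2 (0.0670), and for Pmvk without Pak1-/- replicate 2 (0.0503) or Pak1+/+ replicate 2 (0.0756). A dimmer probe of Fdft1, well above background on 3 of 4 arrays, did not bear out its fall (0.04, 95% interval -0.38 to 0.46, adjusted p = 0.857), and the mean over its probes was not called (-0.18, adjusted p = 0.143), whereas the other probe of Pmvk did (-0.47, adjusted p = 0.00519).

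Hmgcs1 and Fdps were the enzymes before squalene that did not pass. Hmgcs1, the HMG-CoA synthase whose promoter held the sterol element, read 15.15 and 15.05 on the arrays labelled Pak1-/-, against 14.88 and 14.98 for Pak1+/+. The Pak1-/- arrays were the higher ones, without overlap, but the difference of 0.17 was not called (95% interval -0.05 to 0.38, adjusted p = 0.154). Fdps, which makes farnesyl diphosphate, read 16.38 and 16.33 against 16.20 and 16.22, again without overlap and again not called (0.15, interval -0.04 to 0.33, adjusted p = 0.143). The sign for Fdps depended on scaling, at -0.03 for processed signals scaled to the 75th percentile and -0.02 for normexp values scaled the same way.

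Of the 10 enzymes that turn squalene into cholesterol 8 fell (80%, beside 28.2% of all genes) and all 10 differences were negative. Their median was -0.62, beside -0.41 for the 8 enzymes before squalene and -0.05 for all genes. Tm7sf2, a sterol reductase (chr19:6062882-6062941), read 12.97 and 12.81 on the arrays labelled Pak1-/-, against 14.28 and 14.29 for Pak1+/+. No Pak1-/- value came near the Pak1+/+ values, and the difference was -1.39 (SE 0.08, adjusted p = 0.000530), or 2.62-fold lower. Its other probe, at another place in the gene (chr19:6063541-6063600), gave -1.56 (SE 0.07). Lss, lanosterol synthase, which closes the sterol rings (chr10:76015992-76016051), read 10.57 and 10.59 against 11.69 and 11.73. The arrays labelled Pak1-/- were 2.19-fold lower (-1.13, SE 0.07, adjusted p = 0.000506).

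Nsdhl, a dehydrogenase that takes part in removing methyl groups from the sterol (chrX:70202803-70202862), read 12.08 and 12.20 against 13.16 and 13.15. Both Pak1-/- arrays were low, 2.02-fold in the mean (-1.02, SE 0.08, adjusted p = 0.000920), and the other probe gave -0.79 (SE 0.08, adjusted p = 0.00192). Cyp51, the lanosterol demethylase (chr5:4081471-4081530), read 11.04 and 11.11 against 11.90 and 12.03 (-0.89, SE 0.08, adjusted p = 0.00146). Sc4mol, a methyl oxidase of the same stretch of the pathway (chr8:67196982-67197041), read 15.22 and 15.17 against 15.88 and 15.99 (-0.74, SE 0.08, adjusted p = 0.00201). Cyp51 and Sc4mol showed no overlap between groups either.

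Sc5d, a sterol desaturase, read 13.49 and 13.53 against 14.02 and 14.00 (-0.50, SE 0.07, adjusted p = 0.00428). Sqle, squalene epoxidase and a rate-limiting step, read 15.35 and 15.23 against 15.63 and 15.76 (-0.40, adjusted p = 0.0189). Ebp, a sterol isomerase, read 15.16 and 15.15 against 15.53 and 15.54 (-0.38, adjusted p = 0.00955). All 3 were low on both arrays labelled Pak1-/-. Sqle lost its call without Pak1-/- replicate 2 or Pak1+/+ replicate 2 (adjusted p = 0.0716 and 0.0915) or under cyclic loess (0.0615), and Ebp without either Pak1+/+ array (0.0527 and 0.0590). The difference of Ebp was smaller under cyclic loess, at -0.24. Dhcr7, the last reductase of the pathway, read 13.75 and 13.96 against 14.09 and 14.05. Its groups did not overlap but the Pak1-/- arrays disagreed, and its difference of -0.22 passed only without Pak1-/- replicate 2, at -0.32 (adjusted p = 0.124 with all arrays and 0.0485 without it). Hsd17b7, a ketosteroid reductase, overlapped between groups and differed by -0.06 (interval -0.29 to 0.17). That value turned positive without Pak1-/- replicate 2 (0.03) and under cyclic loess (0.02).

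Stard4, a soluble protein that carries cholesterol between membranes, read 11.28 and 11.16 on the arrays labelled Pak1-/-, against 12.28 and 12.16 for Pak1+/+. The groups were apart, with the arrays labelled Pak1-/- 2.00-fold lower (log2 difference -1.001, SE 0.09, adjusted p = 0.00124). The other probe, dimmer, gave -0.92 (SE 0.11, adjusted p = 0.00319).

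In fatty acid synthesis 2 of 5 enzymes fell, a share of 40% beside 28.2% of all genes. Fasn, the fatty acid synthase (chr11:120667666-120667725), read 11.49 and 11.39 on the arrays labelled Pak1-/-, against 12.06 and 12.05 for Pak1+/+. Both Pak1-/- values were lower, and the difference was -0.61 (SE 0.07, adjusted p = 0.00300), or 1.53-fold. Acacb, the mitochondrial acetyl-CoA carboxylase, whose product restrains fatty acid oxidation (chr5:114700702-114700761), read 8.74 and 8.68 against 9.58 and 9.42 (-0.79, SE 0.09, adjusted p = 0.00237). It was low on both Pak1-/- arrays. Its other probe, well above background on 3 of 4 arrays, gave a smaller difference in the same direction (-0.22, adjusted p = 0.0485), and the mean over both was -0.51.

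Acaca, the cytosolic carboxylase that supplies malonyl-CoA to Fasn, read 14.93 and 14.88 against 14.90 and 14.98, with the groups overlapping (-0.04, interval -0.23 to 0.16). None of its other 3 probes was called, at -0.19, -0.03 and 0.12. The sign of the brightest turned without Pak1+/+ replicate 2 (0.0025) and under cyclic loess (0.08). Acly, which splits citrate into acetyl-CoA, differed by -0.19 (interval -0.43 to 0.06, adjusted p = 0.155), and Acss2, which makes acetyl-CoA from acetate, by 0.14 (interval -0.09 to 0.37, adjusted p = 0.235). The groups of Acly and of Acss2 did not overlap, and for Acss2 the arrays labelled Pak1-/- were the higher ones, though its other probe gave -0.09 with overlapping groups.

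The genes that lengthen and desaturate fatty acids held the extremes of the whole set. Fads1 and Fads2, the desaturases that make polyunsaturated fatty acids, were both lower. Fads1 (chr19:10270530-10270589) read 9.47 and 9.61 on the arrays labelled Pak1-/-, against 11.63 and 11.52 for Pak1+/+. The gap between genotypes was far wider than that between replicates, with a log2 difference of -2.03 (SE 0.09, adjusted p = 0.000238), or 4.09-fold lower. Fads2 (chr19:10137760-10137819) read 12.17 and 12.19 against 13.39 and 13.35 (-1.19, SE 0.07, adjusted p = 0.000437). Its other probe, at chr19:10163229-10163288, gave -0.87 (SE 0.09, adjusted p = 0.00197), so that both probes were low on both Pak1-/- arrays.

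Elovl1, the elongase of saturated very long chain fatty acids (chr4:118105163-118105222), was the only gene of the set to rise. It read 15.47 and 15.60 on the arrays labelled Pak1-/-, against 14.88 and 14.95 for Pak1+/+, without overlap (0.62, SE 0.08, adjusted p = 0.00397). Its other probe also rose, by 0.37 (SE 0.10, adjusted p = 0.0401). Elovl5, which lengthens polyunsaturated fatty acids, fell from 14.13 and 14.22 to 13.81 and 13.78 (-0.38, SE 0.07, adjusted p = 0.0125), a call lost without Pak1+/+ replicate 2 (0.0752). Elovl6, which lengthens saturated fatty acids, read 13.33 and 13.63 against 13.86 and 13.80. The groups did not overlap, but the Pak1-/- arrays differed from each other, and -0.35 did not pass (adjusted p = 0.0670). Without Pak1-/- replicate 2 it passed at -0.50 (adjusted p = 0.0230).

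The stearoyl-CoA desaturases make monounsaturated fatty acids. Scd2 read 17.15 and 17.15 against 17.46 and 17.54 (-0.35, SE 0.07, adjusted p = 0.0142), lower on both arrays labelled Pak1-/-. The call was lost without Pak1-/- replicate 1, Pak1+/+ replicate 1 or Pak1+/+ replicate 2 (adjusted p = 0.0522, 0.0506 and 0.0865). Its difference was larger at the 75th percentile scalings, at -0.63 with processed signals and -0.62 with normexp values. Scd1 read 14.91 and 14.97 against 15.11 and 15.00, and its difference of -0.11 was not called (interval -0.32 to 0.09, adjusted p = 0.275). Scd1 and Scd2 are close paralogs, and how far their probes share targets was not tested.

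Both enzymes of glycerolipid synthesis fell, 2 genes in a background where 28.2% of all genes were lower. Lpin1, which makes diacylglycerol, read 10.50 and 10.58 against 11.17 and 10.95 (-0.52, SE 0.10, adjusted p = 0.0135). Gpam, which adds the first acyl chain to glycerol phosphate, read 8.36 and 8.35 against 8.72 and 8.66 (-0.33, SE 0.07, adjusted p = 0.0154). Neither showed overlap. Lpin1 lost its call without Pak1-/- replicate 1 or Pak1+/+ replicate 1 (adjusted p = 0.0709 and 0.0516), and Gpam without any of the 4 arrays (0.0502 to 0.0924). The other probe of Gpam showed no difference (0.00, interval -0.19 to 0.19, adjusted p = 0.983), the mean over its probes was not called (-0.17, adjusted p = 0.108), and the other probe of Lpin1 was too dim to test.

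Most genes with several probes gave the same answer at each. The 38 genes had 57 probes, and 17 genes had more than 1. Of the 18 other probes tested, 16 had the same call as the brightest and 14 had the same sign. Fdft1 and Gpam were the exceptions in call. The sign also differed, without a call at either probe, for Insig2 (0.03 at the other probe), for Acss2, and for the probe of Acaca at 0.12.

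**Figure D2:**
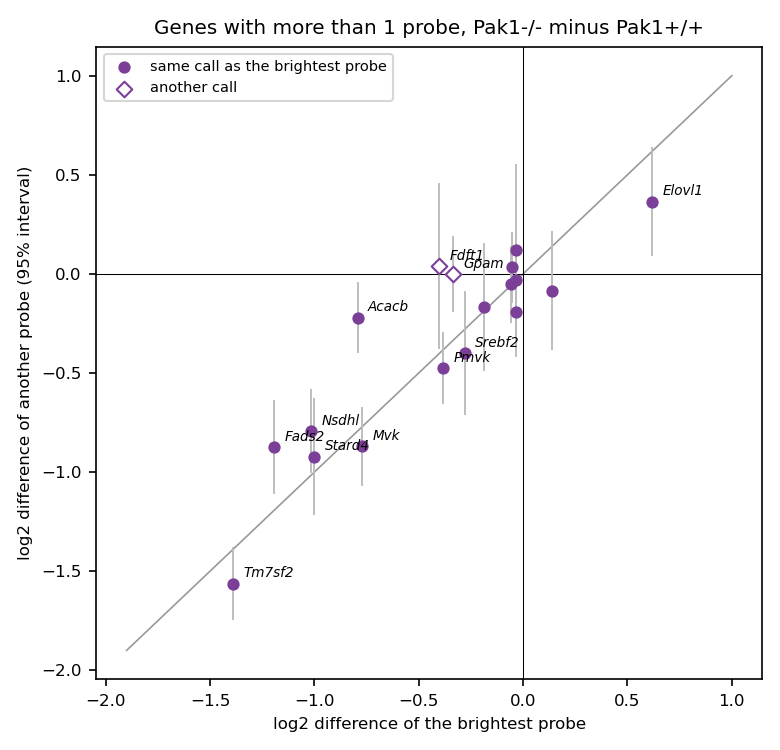
Log2 difference, Pak1-/- minus Pak1+/+, of each other probe tested of a gene (vertical axis, with its 95% interval) against that of the brightest probe of the gene (horizontal axis). The grey diagonal marks equal values. Filled points have the same call at both probes; the open diamonds, Fdft1 and Gpam, lie near 0 on the vertical axis.

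The medians of 6 other lists of lipid genes lay between -0.11 and 0.35. In fatty acid oxidation, the opposing pathway, 11 of 18 genes rose (61.1%, against 22.8% of all genes) and 3 fell (16.7%, against 28.2%), with a median of 0.35. Cpt1a, which admits fatty acids to mitochondria, read 13.23 and 13.40 on the arrays labelled Pak1-/-, against 11.63 and 11.56 for Pak1+/+ (1.72, SE 0.09, adjusted p = 0.000375). Etfdh, which passes electrons from this pathway to the respiratory chain, rose by 0.78. Ppargc1a, a coactivator of mitochondrial genes, went the other way, with 8.72 and 8.77 against 11.72 and 11.27 (-2.75, SE 0.16, adjusted p = 0.000496), and Etfb and Acaa2 fell by 0.52 and 0.44. No array of Cpt1a or Ppargc1a crossed into the other group. The count of called genes in this list, 14, was 8 without Pak1+/+ replicate 1, with 6 higher.

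The largest rise among these lists was that of a sterol exporter. Abca1, which moves cholesterol out of the cell, read 12.57 and 12.24 on the arrays labelled Pak1-/-, against 7.87 and 8.37 for Pak1+/+ (4.29, SE 0.21, adjusted p = 0.000302). Abcg1, another cholesterol exporter, read 10.24 and 10.11 against 7.01 and 6.91, but only 1 of the 2 Pak1+/+ arrays was well above background, so its level there lies at the edge of background and no fold is given. Nr1h3, a liver X receptor known to activate both genes, read 10.24 and 10.31 against 11.61 and 11.75 and so was lower (-1.40, SE 0.08, adjusted p = 0.000500). Nr1h2, the other liver X receptor, named here after its value was seen, was not called (0.15, SE 0.07, adjusted p = 0.131). Abca1 and Nr1h3 were each split by genotype without overlap. Mylip rose by 0.36 and Lpcat3 fell by 0.27, so 3 of 6 genes tested rose (50%, beside 22.8% of all genes), Abcg1 among them. Abcg1 met the filter on dim probes through the 2 Pak1-/- arrays, where it was high, so no conclusion is drawn from that share. The genes that fell were 2 (33.3%, near the 28.2% of all genes). Only 1 fell under cyclic loess, with a replicate block or with any array left out. The 5 calls became 3 without Pak1-/- replicate 1 or without Pak1+/+ replicate 2. Abcg5 and Abcg8 were too dim to test.

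Of 10 genes listed under NADPH and citrate supply, 3 rose and 3 fell (30% each, where 22.8% and 28.2% of all genes did). The list median was 0.01, and the list also holds genes that supply neither, such as Thrsp. Thrsp, a regulator of fat synthesis in lactating mammary gland and liver, fell the most, with 8.05 and 8.22 on the arrays labelled Pak1-/- against 11.94 and 11.98 (-3.82, SE 0.09, adjusted p = 6.72e-05), or 14.1-fold. The arrays of each genotype lay close together. Me1, the malic enzyme that makes NADPH, fell by 0.36 and Aco1 fell by 0.63, while Pgd of the pentose phosphate pathway rose by 0.64, Taldo1 by 0.40 and the citrate carrier Slc25a1 by 0.39. The 6 calls became 3 without Pak1+/+ replicate 1, with 1 higher.

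Of 22 genes of lipid uptake and storage, 4 rose and 6 fell (18.2% and 27.3%, beside 22.8% and 28.2% of all genes), with a median of -0.06. Under cyclic loess 7 rose. Plin2, which coats lipid droplets, read 16.37 and 16.44 against 15.08 and 15.17 and rose by 1.28 (SE 0.08, adjusted p = 0.000484). Acsl5, an acyl-CoA synthetase, read 12.79 and 13.16 against 14.37 and 14.28 and fell by 1.35 (SE 0.14, adjusted p = 0.00206). Both were split by genotype. Dgat2 and Lpin3 rose by 0.58 and 0.46, and the fatty acid carrier Fabp5 and the lipoprotein receptor Vldlr fell by 0.86 and 0.75.

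The machinery that processes SREBPs or degrades sterol-regulated proteins held 4 of 12 genes higher and 4 lower, 33.3% each way beside 22.8% and 28.2% of all genes, with a median of -0.11. Vcp, the segregase that pulls proteins from the membrane for degradation, rose by 0.98 and its partner Ufd1l by 0.50, and Fbxw7, part of a ubiquitin ligase for nuclear SREBP, rose by 0.49. Mbtps2, the site-2 protease that releases SREBP, fell by 0.67, Aup1 by 0.70 and Erlin1 by 0.45. Among 8 elongases and desaturases outside the set that were tested, 2 rose (Fads3 by 0.79 and Ptplb by 0.24) and 3 fell (Fads6 by 0.54, Scd3 by 0.45 and Hsd17b12 by 0.36), with a median of -0.06. That is 25% higher and 37.5% lower, near the 22.8% and 28.2% of all genes. These 5 calls became 3 without either Pak1-/- array and 2 without either Pak1+/+ array, and only 1 fell under cyclic loess. Only 1 rose with any array left out, with a replicate block, at other normexp offsets, at either 75th percentile scaling and without a filter on dim probes.

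**Figure D3:**
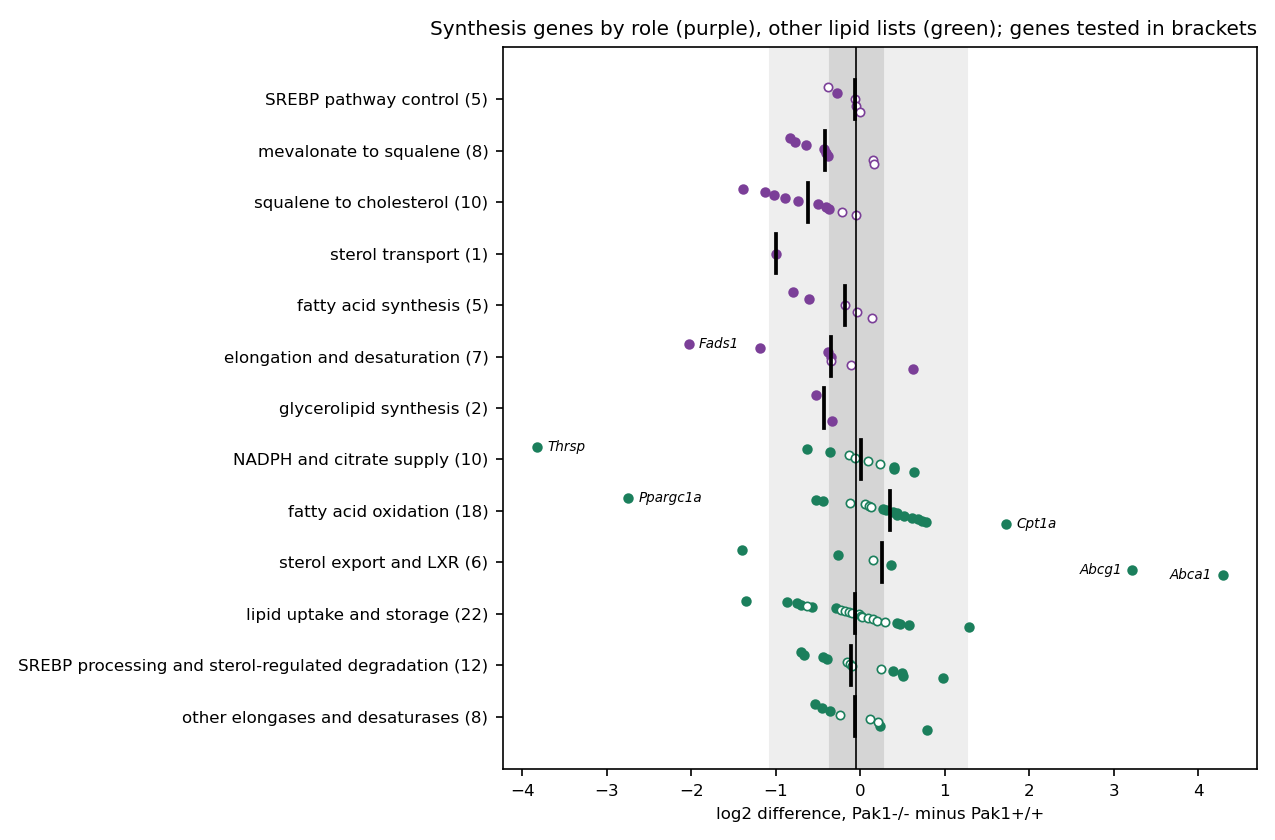
Log2 difference, Pak1-/- minus Pak1+/+, of every gene tested in the synthesis roles (purple) and in the other lipid lists (green). Filled points passed an adjusted p under 0.05 and open points did not, black bars are list medians, the vertical line is the median of all genes (-0.05), and the darker band runs from the 25th to the 75th and the lighter from the 5th to the 95th percentile of all genes. The medians of the sterol enzymes lie to the left of the darker band, and that of fatty acid oxidation, 0.35, lies to its right.

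**Figure D4:**
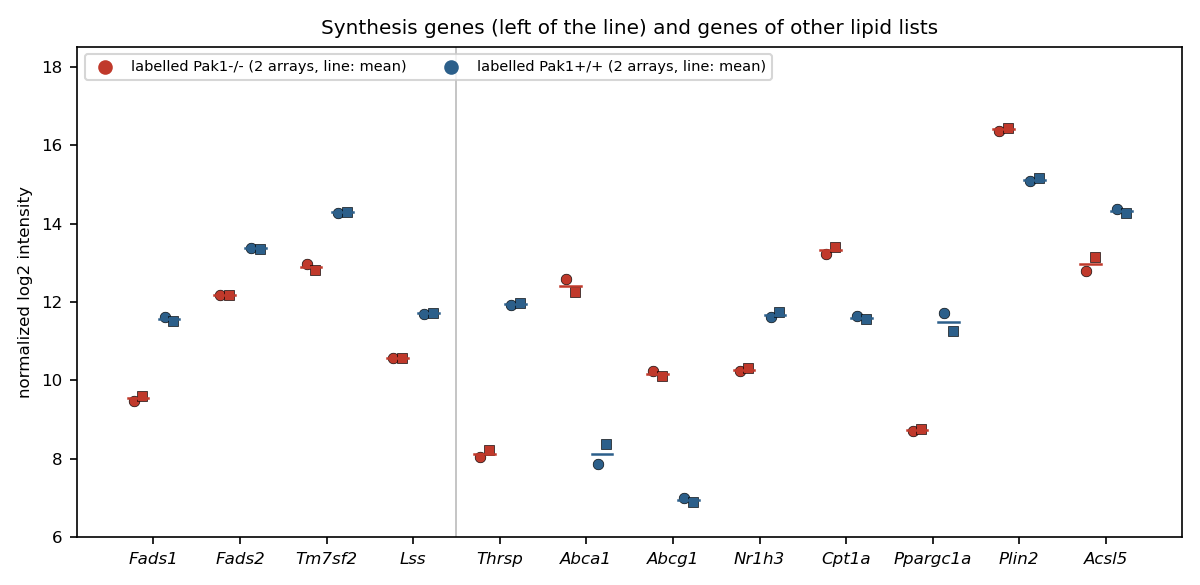
Normalized log2 intensity on each array of the 4 synthesis genes with the largest differences (left of the grey line) and of 8 genes of the other lipid lists. Red, labelled Pak1-/-; blue, labelled Pak1+/+; circles and squares, replicates 1 and 2; short lines, group means. Levels are not comparable between probes. The 12 genes were picked for large differences, so that their groups stand apart follows from the choice (77.6% of all genes showed no overlap). Abca1, Abcg1, Cpt1a and Plin2 were higher and the others lower in the arrays labelled Pak1-/-. The level of Abcg1 in the Pak1+/+ arrays lies at the edge of background.

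Markers of other cell types were examined because adipocytes also make fat. Of 8 adipocyte markers, Adipoq and Lep stayed at background on all 4 arrays, and the summed linear intensity of the list came to 1104 and 1209 in the Pak1-/- arrays, against 1143 and 1058 for Pak1+/+. Those sums overlapped between groups, but 5 of the 8 markers were too dim to test, so background and the offset make up part of them. Pparg rose by 0.80 and Retn fell by 0.49. In the fibroblast list 3 of 6 genes were dim on every array, with sums of 1372 and 1211 against 1051 and 1004. Of the 3 tested, Col1a1 rose by 1.12, from 8.03 and 7.93 to 9.31 and 8.88 (adjusted p = 0.00512), and the others were not called. The leukocyte sum was 74984 and 52320 against 48153 and 43702, and 86.2% to 91.9% of it came from the probe of Itgam, which was not called. Without Itgam the sums were 6064 and 5768 against 5088 and 6021 and overlapped. Of 6 tested leukocyte markers, Emr1 fell by 1.05 and Ptprc fell by 0.45, and Lyz2 was dim on every array. The endothelial sum overlapped between groups, and none of its 3 tested markers was called. Of 8 epithelial markers 7 were well above background on all 4 arrays, and Krt19 was on 3. Their sums were 1.10e+06 and 1.09e+06 against 9.29e+05 and 9.23e+05, with 73.0% to 82.4% from Krt8 and Krt18, and without those 193799 and 195406 against 251135 and 244853, the other way round. Of these 8, 5 rose and 1 fell (62.5% and 12.5%, beside 22.8% and 28.2% of all genes), among them Krt14 by 2.83 and Cdh1 by 1.19 upward and Krt7 by 1.10 downward. Their part in the synthesis genes' differences was not tested.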

How the data were processed

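Total RNA of 4 samples was measured on 1-color (Cy3) Agilent arrays. The deposited scanner files give linear intensities of spots, not yet normalized, and their headers name Feature Extraction 9.5.3.1. The authors also deposited log2 values (normexp, then quantile normalized) for 24008 of 39485 probes, used as an alternative. Here normexp with an offset of 50 and quantile normalization were applied in limma 3.58.1 (R 4.3.3). The offset was not stated in the sources used here, and it understates changes of dim probes. Spots with outlier flags were set aside and the spots of a probe averaged. Probes had to be well above background on 2 or more of the 4 arrays (27229, or 69.1%) and were fitted with lmFit and eBayes (two-sided, genotype only), with Benjamini-Hochberg adjustment over all of them at 0.05 and 2 residual plus 2.62 prior degrees of freedom. An exact permutation test of 2 against 2 cannot go below p = 0.333, so none was used. Array number limits precision. Probe coordinates are the files' (mm9).

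The genes, the lists and the rules were chosen with earlier results of these data known. Named were all synthesis genes, their other probes where informative, and at most 3 called genes in each direction of the other lists, of which 1 is not reported here. Replicate numbers did not pair the samples (r = -0.028 between the groups' replicate differences over probes). Scripts were tested on simulated data. Alternatives covered offset, scaling, filter, threshold, probe averaging, a replicate block, the authors' values and each array left out.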

Additional observations from a re-analysis of the deposited data

How the results depend on the processing

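Over 14 alternatives at the same threshold, 15 of the 25 called genes kept their call (Fads2 and Gpam have 13 alternatives, since their brightest probe has no value in the authors' table), and the other 10, named in the report, lost it when an array was left out. Of those, Srebf2 and Sqle also lost it under cyclic loess (adjusted p = 0.0656 and 0.0615), and Fdft1 and Gpam when all probes of a gene were averaged (0.143 and 0.108). The median of the 38 genes moved to -0.29 under cyclic loess, and to -0.44 with processed signals and -0.43 with normexp values when scaling at the 75th percentile. At an adjusted p under 0.01, 15 genes were lower, among 8878 probes called, and with 2-fold required 6 were lower and 0 higher, among 3413. The genes called at 0.01 numbered 3 of 10 for NADPH and citrate supply, 3 of 6 for sterol export, and 2 of 8 for other elongases and desaturases. With 2-fold required, 12.6% of all genes were called in either direction. The lists then had 1 of 10 for NADPH and citrate supply, 2 of 18 for fatty acid oxidation and 3 of 6 for sterol export, Abcg1 among them. They had 2 of 22 for lipid uptake and storage, 0 of 12 for SREBP processing and 0 of 8 for other elongases and desaturases. The last list had 3 calls at either 75th percentile scaling and 2 without a filter on dim probes.

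With 1 array left out, and the lone array of that group taken to vary like the others, the lower genes numbered 16 to 22, the higher gene stayed 1, the median ran from -0.41 to -0.36 and 10307 to 12164 probes were called. The lists' calls ran from 3 to 6 (NADPH and citrate), 8 to 12 (oxidation), 3 to 4 (sterol export), 9 to 10 (uptake and storage), 6 to 8 (SREBP processing) and 2 to 3 (other elongases). Signs turned only for differences near 0: Fdps (-0.031 and -0.018 at the 75th percentile scalings); under cyclic loess Srebf1 (0.068), Scap (0.045), Insig2 (0.019), Hsd17b7 (0.024), Acaca (0.077) and the medians of uptake and storage (0.0034), SREBP processing (0.012) and other elongases (0.0049); and Srebf1 with the authors' values (0.013). With 1 array left out, Srebf1 ran from -0.078 to 0.061, Hsd17b7 from -0.14 to 0.030 and Acaca from -0.074 to 0.0025. The NADPH and citrate median was -0.032 and -0.023 at the 75th percentile scalings, and ran from -0.035 to 0.061 with 1 array left out. The cause was not tested. With a replicate block 23 genes were lower and 1 higher among 13211 probes called; Srebf2 lost its call (adjusted p = 0.0563), and the block changed no other call of the 38. Dim probes are limited by background, and 2 tumors a group limit every value.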

Other observations

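The neighbors of Fads1 on mouse chromosome 19 were looked up after its value was seen. In mm9 order, Fads3 (10132641) was higher in the arrays labelled Pak1-/-, with 14.90 and 14.82 against 13.97 and 14.18 (log2 difference 0.79, SE 0.10, limma adjusted p = 0.00341). Fads2 and Fads1 follow it and were lower, as given in the report. Fen1 (10273675), a nuclease of DNA replication, lies next to Fads1 and was also lower, with 13.90 and 13.97 against 14.57 and 14.69 (-0.70, SE 0.08, adjusted p = 0.00282). Dagla (10319766), a lipase beyond Fen1, read 8.83 and 8.87 against 6.27 and 6.48, the latter not well above background, a ratio of at least 3.96-fold with the bound set by the dimmest probe well above background on the Pak1+/+ arrays. It passed the filter on dim probes through the Pak1-/- arrays alone, so no test is drawn from it. Fads3 and Fen1 showed no overlap between groups, and the 3 desaturase genes of this cluster did not move in the same direction. Rab3il1, beyond Fads3, was too dim to test. No test was made of the cluster as a whole.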
